A study of Mus musculus with 6 samples.

Results

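A set of 9 B-lineage genes was followed in cultured macrophages: *Ighm*, *Igkc*, *Cd79a*, *Cd79b*, *Ms4a1*, *Pax5*, *Ebf1*, *Ly6d* and *Jchain*, out of 55335 rows of the table. They were chosen by the measured FPKM of *Ighm* and *Cd79b*, which had been seen to be higher in the macrophages labelled KO than in those labelled WT, and the other 7 are further B-lineage genes, so the values of that contrast are described here without a test. Of the 9 members, 3 (*Ighm*, *Cd79b* and *Ebf1*) averaged 0.5 FPKM or more across libraries, 6 lay under it, and 2 of these 6 (*Igkc* and *Ly6d*) were listed at 0 in all 6 libraries. FPKM divides the fragments of a gene by its length in kilobases and by the size of the library.

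The cells were mouse bone marrow-derived macrophages (BMDMs), grown from *Cd177* WT marrow for 7 days with M-CSF at 25 ng/ml, the growth factor that drives marrow cells to macrophages. BMDMs were cultured for 24 h with neutrophils taken at 3 days post-injury from the spinal cord lesion of *Cd177* WT mice (3 libraries, WT replicates 1 to 3) or *Cd177* KO mice (3 libraries, KO replicates 1 to 3), so only the neutrophils differed in genotype. After the co-culture the macrophages were recovered by sorting Ly6G-negative cells. CD177 is a surface protein of neutrophils, and the study used these cultures to ask how its loss on neutrophils acts on macrophages. The paper describes all animals as male and its purchased wild-type mice as adult C57BL/6. Its methods state no background strain for the *Cd177* KO mice. The labels do not say whether the replicates came from separate cultures or animals. Every p-value below therefore measures only the spread between these libraries, which may be technical.

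The macrophages were *Cd177* WT under both labels, so their own *Cd177* does not check the genotype of the neutrophils they were cultured with. The row had 0.544, 0.309 and 0.521 FPKM in WT replicates 1 to 3 and 1.79, 1.84 and 2.28 FPKM in KO replicates 1 to 3. It was higher under the KO label, as most neutrophil markers were (values below). The neutrophils under that label came from *Cd177* KO mice, so the row ran against their labelled genotype. Which cells its RNA came from was not tested. The libraries are called "labelled WT" and "labelled KO" wherever a direction is given. The low values put the depth at about 17600000 to 20300000 fragments per library. Libraries correlated at 0.967 to 0.985 within a label and at 0.905 to 0.917 across labels (Pearson's r, log2 scale, across genes). Between the labels, 5027 of 13367 tested genes (37.6%) passed an adjusted p-value of 0.05 in limma, 3619 (27.1%) with the KO label higher and 1408 (10.5%) with it lower. The macrophage markers *Csf1r* (263 and 283 FPKM, means of the libraries labelled WT and KO), *Cd68* (503 and 560 FPKM) and *Lyz2* (4920 and 6140 FPKM) were abundant under both labels.

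A B cell carries an antigen receptor made of an immunoglobulin heavy chain and a light chain, and the chains reach the surface only together with the signalling pair CD79A and CD79B. The heavy chain of the first receptor is the mu chain encoded by *Ighm*, and the commonest mouse light chain is encoded by *Igkc*. EBF1, with TCF3 (E2A) and then PAX5, sets up the programme in lymphoid progenitors, and the genes of the receptor complex are among their known targets. Germline transcripts of *Ighm*, without a rearranged variable segment, are a known product of the unrearranged heavy chain locus.

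The 2 constant genes compared most directly are shown by the first 120 bases of their coding exon, from the GRCm38 annotation (GENCODE M21), because these partners of one receptor were listed at very different levels. *Ighm* (ENSMUSG00000076617) lies on the minus strand at chr12:113418558-113422730 and is annotated as an immunoglobulin constant gene with 2 transcripts, which share their first 1305 bases. The stretch from its first exon is chr12:113422611-113422730, minus strand, and that of *Igkc* (ENSMUSG00000076609), a gene of 1 exon on the plus strand, is chr6:70726435-70726554.
Ighm: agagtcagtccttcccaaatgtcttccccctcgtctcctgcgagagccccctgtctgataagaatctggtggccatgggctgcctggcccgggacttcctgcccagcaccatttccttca
Igkc: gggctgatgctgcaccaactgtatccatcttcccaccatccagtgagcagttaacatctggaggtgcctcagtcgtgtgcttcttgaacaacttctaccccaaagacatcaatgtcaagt

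*Ighm* was listed at 0.39, 0.293 and 0.0573 FPKM in WT replicates 1, 2 and 3 and at 9.66, 9.43 and 10.5 FPKM in KO replicates 1, 2 and 3. The labels did not overlap, and the lowest library labelled KO stood 24.2 times above the highest labelled WT. The mean was 0.247 ± 0.171 FPKM (SD, n = 3) under the WT label and 9.88 ± 0.587 FPKM (SD, n = 3) under the KO label, a difference of 3.82 in log2(FPKM + 0.5) with a pooled SD of 0.255. This was the difference of rank 4 among the 13367 tested genes, counted from the highest. *Ighm* was chosen by this rise and reached the filter of 0.5 FPKM only through the libraries labelled KO, so the rank is a description only. At the estimated depths these values amount to about 12.6, 9 and 1.75 fragments in the libraries labelled WT and about 289, 325 and 330 fragments in those labelled KO, so the level under the WT label rests on few fragments.

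*Igkc*, the light chain partner, was listed at 0 in all 6 libraries. One long non-coding gene, *Gm30211*, overlaps it on the same strand and was listed at 0 as well. *Jchain*, which joins secreted IgM and IgA into polymers, had 0.0208, 0 and 0.044 FPKM in WT replicates 1, 2 and 3 and 0, 0.0782 and 0.043 FPKM in KO replicates 1, 2 and 3, values of at most about 3.71 fragments. The labels overlapped for *Jchain*.

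The rest of the immunoglobulin loci showed no level like that of *Ighm*. Of 10 constant genes outside the members, 9 were listed at 0 in all libraries, *Ighd* directly downstream of *Ighm* among them, and *Igha* had 0.0621 FPKM in WT replicate 2 only. Of 348 variable segment rows (185 heavy, 160 kappa and 3 lambda), 6 heavy chain rows were above 0 in any library. The number of variable rows above 0 was 1, 3 and 0 in WT replicates 1 to 3 and 0, 3 and 2 in KO replicates 1 to 3, and their FPKM summed to at most 0.728, in KO replicate 2. KO replicate 1, with 9.66 FPKM of *Ighm*, had no variable row above 0. The 20 heavy chain diversity and the 14 joining segment rows were listed at 0 throughout. Variable segments are short and alike, and how the authors' counting treated fragments that match several rows is not given in the sources used here, so these zeros are listed values only.

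Of the signalling pair of the receptor, *Cd79b* was listed at a level of some FPKM and *Cd79a* at or near 0. *Cd79b* (ENSMUSG00000040592, minus strand, chr11:106311341-106314762) had 0.805, 1.01 and 0.654 FPKM in WT replicates 1, 2 and 3 and 3.89, 3.55 and 4.87 FPKM in KO replicates 1, 2 and 3. All 3 libraries labelled KO lay above all 3 labelled WT, the lowest 3.53 times above the highest. The means were 0.822 ± 0.177 and 4.1 ± 0.682 FPKM (SD, n = 3 each), a difference of 1.8 in log2(FPKM + 0.5) with a pooled SD of 0.201 and rank 143 among the tested genes. *Cd79b* too was chosen by its rise, so its rank is a description only. About 16.9 to 26.1 fragments per library lay behind the values labelled WT and about 98 to 128 behind those labelled KO.

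*Cd79a* (ENSMUSG00000003379, plus strand, chr7:24897381-24902197), whose protein pairs with CD79B in the receptor, was listed at 0 in the 3 libraries labelled WT and at 0.0519, 0.0395 and 0 FPKM in KO replicates 1, 2 and 3. These are about 1.33 and 1.17 fragments in the first and second of the KO replicates. A level of 1 fragment corresponds to 0.038 FPKM for this gene at the median depth, so a *Cd79a* level near that of *Cd79b* in the same libraries would have been seen at this depth.

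**Figure D1:**
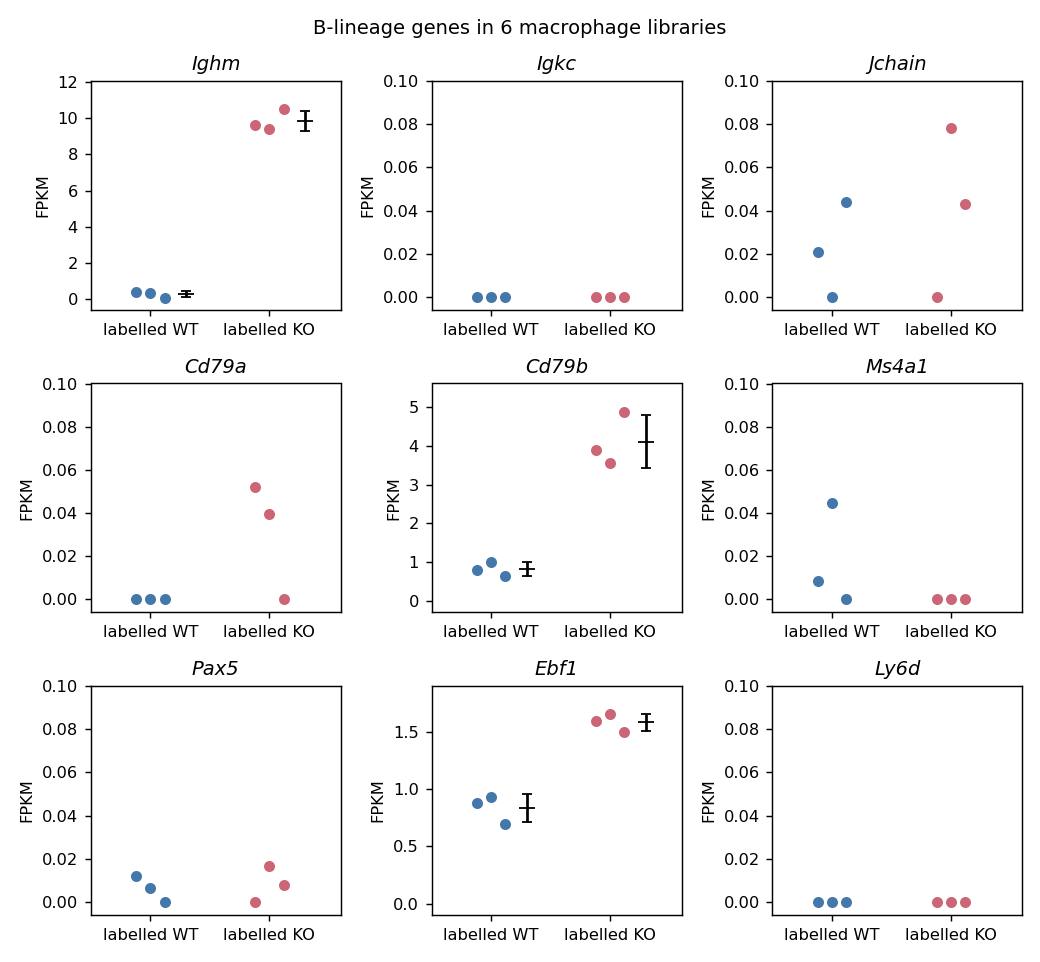
Level of each of the 9 B-lineage genes in FPKM (vertical axis, linear, a different range in each panel) in the 3 libraries labelled WT (blue) and the 3 labelled KO (red). Each dot is 1 library, and the bars beside *Ighm*, *Cd79b* and *Ebf1* are the mean and SD of 3 libraries; these 3 genes are higher in every library labelled KO, while *Igkc* and *Ly6d* are at 0 throughout and the other 4 stay under 0.1 FPKM.

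Of the B-cell surface genes among the members, *Ms4a1*, which encodes CD20, had 0.00848, 0.0447 and 0 FPKM in WT replicates 1, 2 and 3 and was listed at 0 in the 3 libraries labelled KO. The highest of these values is about 2.49 fragments, and the antisense gene *4930526L06Rik* overlaps *Ms4a1*, so fragments of the 2 genes could not be told apart if strand was not used. *Ly6d*, a surface marker of B-committed lymphoid progenitors, was listed at 0 in all 6 libraries. Neither gene followed *Ighm*.

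Among the transcription factors, *Ebf1* (ENSMUSG00000057098, plus strand, chr11:44617317-45008091) had 0.873, 0.926 and 0.698 FPKM in WT replicates 1, 2 and 3 and 1.59, 1.65 and 1.5 FPKM in KO replicates 1, 2 and 3. The labels did not overlap, and the lowest library labelled KO was 1.62 times the highest labelled WT. The means were 0.833 ± 0.119 and 1.58 ± 0.0748 FPKM (SD, n = 3 each), and the difference in log2(FPKM + 0.5) was 0.65 with a pooled SD of 0.101. It ranked 2297 of 13367, beside a median difference of 0.19 over all tested genes. *Pax5*, which commits lymphoid progenitors to the B lineage, had 0.0119, 0.00624 and 0 FPKM in WT replicates 1, 2 and 3 and 0, 0.0166 and 0.00763 FPKM in KO replicates 1, 2 and 3. Its labels overlapped, and the highest value is about 2.7 fragments.

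By this count, 3 of the 9 members had labels that did not overlap, each with the KO label higher. Over all rows above 0 in any library the KO label was higher without overlap in 23.1% of 28101 rows, and over the tested genes in 37.5% (51.9% in either direction). *Ighm* and *Cd79b* were the genes that led to the choice of members, so *Ebf1* is the one other member that lay higher. More cells that carry these transcripts and more RNA per cell cannot be told apart in such bulk libraries. Which cells the RNA of these members came from was not tested. Under another scaling between libraries the difference of *Ebf1* shrank to 0.49 (median-of-ratios) and 0.5 (upper-quartile), and those of *Ighm* (3.67 and 3.69) and *Cd79b* (1.62 and 1.64) moved less than their spread.

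**Figure D2:**
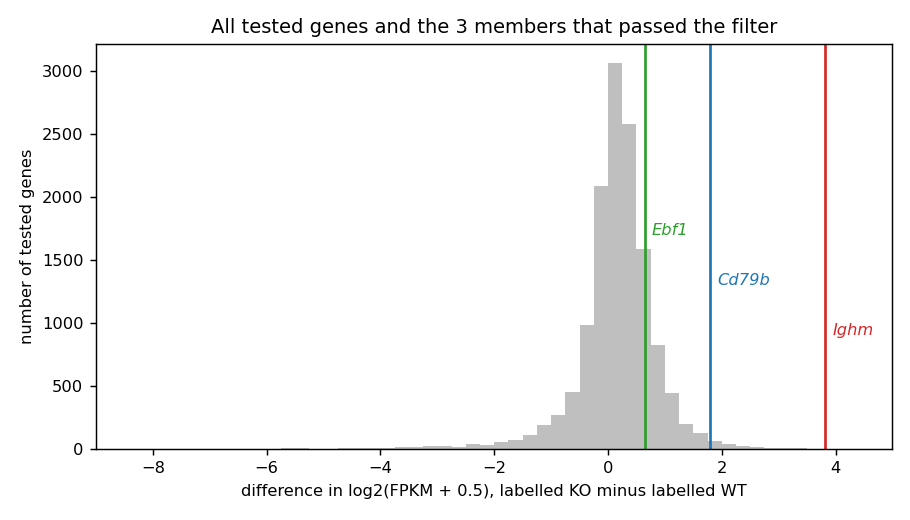
Number of tested genes (vertical axis) by their difference in log2(FPKM + 0.5), labelled KO minus labelled WT (horizontal axis, bins of 0.25), for 13367 genes. Vertical lines mark *Ebf1* at 0.65, inside the bulk of the genes, *Cd79b* at 1.8 in the right tail and *Ighm* at 3.82 near its end.

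The promoter of *Cd79a* is shown because EBF1, E2A and ETS factors are known to act on it, while *Ebf1* was listed in every library and *Cd79a* was at or near 0. The RefSeq promoter table (GRCm38.p6) held 5 windows of 300 bases for 4 of the 9 members, *Cd79a*, *Pax5*, *Ebf1* and *Jchain*. The window of *Cd79a* is chr7:24897247-24897546 on the plus strand, and its capitals mark CAGGTG, an E-box of the kind E2A binds, and AGGAAGT, an ETS core.
Cd79a: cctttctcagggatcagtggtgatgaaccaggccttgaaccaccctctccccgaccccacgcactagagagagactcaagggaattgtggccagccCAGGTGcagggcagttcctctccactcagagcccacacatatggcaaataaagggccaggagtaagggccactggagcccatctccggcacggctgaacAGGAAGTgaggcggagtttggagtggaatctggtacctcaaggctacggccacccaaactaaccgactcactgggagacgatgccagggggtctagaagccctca

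Read on both strands, CAGGTG stood in 20.2% and AGGAAGT in 9.35% of the 32851 promoter windows of the table. The other motifs searched were the EBF1 palindrome (0.904% of windows) and the octamer ATGCAAAT, bound by POU2F2 (1.74% of windows). None of the 5 member windows held a match to either. EBF1 sites that depart from the palindrome were not searched. Whether the *Cd79a* window holds such a site was therefore not tested. The 4 motifs cannot overlap each other at the marked places in *Cd79a*. A match or its lack describes these letters in this window and nothing of the factor.

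To see whether other B-cell genes moved with the members, 71 genes in 6 lists were read from the fit over all tested genes. Of the 71, 22 were listed at 0 in all libraries, 17 lay under the filter and 32 were tested. Of the 32 tested, 13 (40.6%) rose and 5 (15.6%) fell in the libraries labelled KO, beside 27.1% and 10.5% of all tested genes, and their median difference was 0.23 beside 0.19. Without the 12 receptor signalling genes that macrophages also use, 20 genes were tested, of which 8 (40.0%) rose and 5 (25.0%) fell, with a median of -0.04. The balance of these calls depended on the scaling: 10 rose and 10 fell under median-of-ratios scaling, beside 15.3% and 17.0% of all tested genes, and 11 rose and 10 fell under upper-quartile scaling, beside 15.8% and 16.2%. The number that fell was also 3 without WT replicate 2 or without KO replicate 2 and 8 without WT replicate 3.

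Most genes of the early B-cell stages were listed at 0 or under the filter. Of 12, 6 were listed at 0 in every library: the surrogate light chain genes *Vpreb2*, *Vpreb3* and *Igll1*, the recombinase genes *Rag1* and *Rag2*, and *Dntt*, which adds bases at the joins. Of the 3 tested, 1 rose and 1 fell, beside 27.1% and 10.5% of all tested genes. *Il7r*, the receptor chain for interleukin-7, fell from 103 ± 1.8 to 37.3 ± 0.487 FPKM (SD, n = 3 each; difference -1.45 in log2, SE 0.069, limma adjusted p = 1.72e-05). *Cd93*, a surface protein of early B cells that myeloid cells carry too, rose from 19.8 ± 5.73 to 65.1 ± 11.4 FPKM (difference 1.72 in log2, limma adjusted p = 0.00197). *Sox4*, a factor of many progenitors, differed by -0.14 in log2 (limma adjusted p = 0.502).

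Among the mature B-cell surface and signalling genes, *Blk*, *Fcer2a*, *Fcmr* and *Tnfrsf13c* were listed at 0 in all libraries. Of 17 genes, 6 were tested, of which 4 rose and none fell in limma, beside 27.1% and 10.5% of all tested genes. Their median difference was 0.91 beside 0.19. All 4 that rose averaged under 0.5 FPKM under the WT label, so they reached the filter only through the libraries labelled KO. The count and the median are shaped by that filter, and these 4 are also among the 13 that rose over all 6 lists. For that reason the 4 are described below without a p-value. *Fcrl1*, an Fc receptor-like protein of B cells, had 0.383, 0.436 and 0.388 FPKM in WT replicates 1, 2 and 3 and 2.57, 2.71 and 3.19 FPKM in KO replicates 1, 2 and 3. Its labels lay far apart, with a difference of 1.88 in log2 (SE 0.12). *Siglecg*, an inhibitory sialic acid receptor, had 0.496 ± 0.121 FPKM under the WT label and 1.72 ± 0.248 FPKM under the KO label (1.16 in log2). *Ralgps2*, a Ral exchange factor, was higher under the KO label by 1.02 in log2 and *Cd55*, a complement inhibitor of many cells, by 0.79.

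The best expressed genes of that list did not pass the test. *Cd22*, an inhibitory coreceptor, had 4.18 to 5.12 FPKM under the WT label and 4.09 to 5.46 FPKM under the KO label, which overlap (0.06 in log2, limma adjusted p = 0.769). *Cd24a*, a surface protein of many immature cells, differed by -0.25 (limma adjusted p = 0.0648), was the 1 gene lower at an unadjusted p-value under 0.05, and fell under both other scalings (adjusted p = 0.0116 and 0.0154). Chosen after its values were seen, *Bank1*, an adaptor of B-cell receptor signalling, was at 0 under the WT label and at 0.824, 0.825 and 0.56 FPKM in KO replicates 1, 2 and 3. It lay under the filter and differed by 1.3 in log2. As it was picked by these values, no p-value is given for it.

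**Figure D3:**
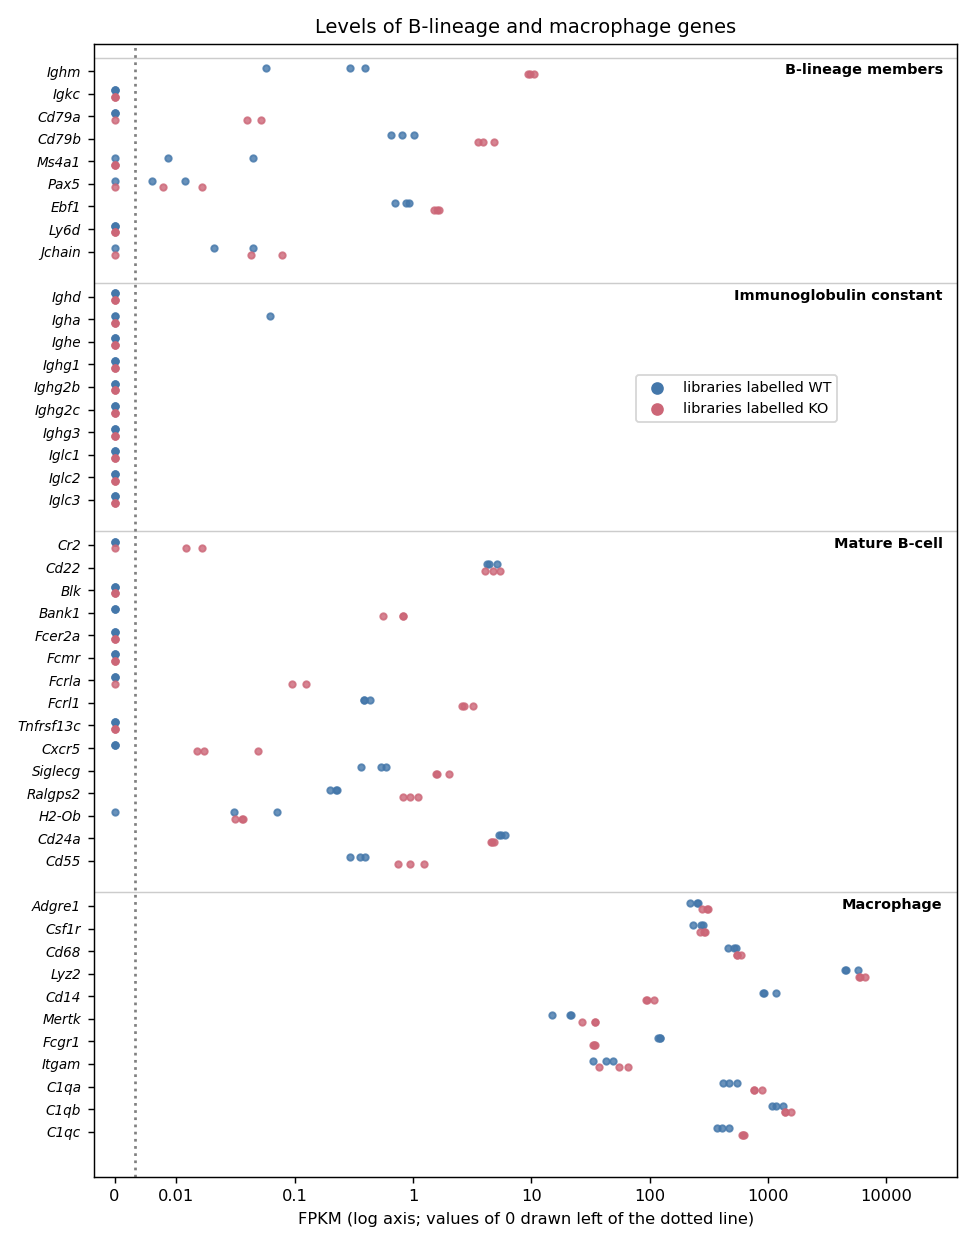
FPKM on a log axis (horizontal; values of 0 are drawn at the left of the dotted line) for the 9 members, the other immunoglobulin constant genes, mature B-cell genes and macrophage markers, with 1 dot for each library, blue for labelled WT and red for labelled KO. Most B-lineage genes sit at 0 or under 0.1 FPKM, *Ighm* reaches about 10 FPKM in the libraries labelled KO, and the macrophage markers lie above 10 FPKM in every library.

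Of 9 B-cell transcription factors outside the members, *Spib* and *Pou2af1*, the octamer coactivator, were listed at 0 throughout, and 4 were tested. *Pou2f2*, the octamer factor Oct2, had 1.26, 1.24 and 0.895 FPKM in WT replicates 1, 2 and 3 and 8.57, 7.95 and 1.63 FPKM in KO replicates 1, 2 and 3. KO replicate 3 stood close to the libraries labelled WT. *Pou2f2* rose by 1.75 in log2 (SE 0.54, limma adjusted p = 0.0407), a call lost under both other scalings (adjusted p of 0.0593 and 0.06), without a filter (0.105) and without any 1 library except KO replicate 3 (0.0829 to 0.123). *Tcf3*, the gene of E2A, rose from 10.1 ± 1.6 to 14.7 ± 0.496 FPKM (0.53 in log2, limma adjusted p = 0.0162), a call also lost under both other scalings (0.0811 and 0.061) and without KO replicate 1 (0.061) or KO replicate 2 (0.0587). *Foxo1* and *Ets1* differed by 0.28 and -0.77 (limma adjusted p = 0.199 and 0.0906), and under both other scalings *Ets1* fell (0.0468 and 0.0491).

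The genes that carry a signal inward from CD79A and CD79B are shared with macrophages, and all 12 were tested. Of these, 5 (41.7%) rose and none fell in limma, beside 27.1% and 10.5% of all tested genes. None lay lower at an unadjusted p-value under 0.05 either, and the median difference was 0.34 beside 0.19. *Blnk*, the adaptor between SYK and its targets, rose from 8.91 ± 0.753 to 16.1 ± 1.39 FPKM (0.82 in log2, limma adjusted p = 0.00117). *Inpp5d*, the inhibitory lipid phosphatase SHIP1, rose by 0.8 (limma adjusted p = 0.0128), *Ptpn6*, the inhibitory tyrosine phosphatase SHP-1, by 0.67 (0.00134), *Pik3ap1*, an adaptor for PI3-kinase, by 0.66 (0.00498) and *Btk*, a tyrosine kinase, by 0.6 (0.0101). The call of *Btk* was lost under median-of-ratios scaling (0.37 in log2, adjusted p = 0.0562). *Syk*, the kinase that binds the CD79 tails, differed by -0.38 (limma adjusted p = 0.12) and fell under both other scalings (adjusted p = 0.0237 and 0.0224).

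Of 11 plasma cell genes, 7 were tested. Of these, 1 (14.3%) rose and 4 (57.1%) fell, beside 27.1% and 10.5% of all tested genes. Their median difference was -0.41 beside 0.19. The regulator *Prdm1* and *Edem1*, of protein quality control, just missed the threshold (limma adjusted p = 0.0501 and 0.0553), and both fell under either other scaling. In the same list *Mzb1*, a chaperone of IgM assembly, was listed at 0 throughout. *Sdc1*, the plasma cell surface marker CD138, which macrophages can carry too, fell from 114 ± 2.82 to 36.9 ± 0.777 FPKM (-1.61 in log2, limma adjusted p = 1.2e-05). *Creld2*, a protein of the endoplasmic reticulum stress response, fell by 1.73 on the log2 scale (limma adjusted p = 0.000207). *Fkbp11* and *Xbp1*, of the secretory pathway, fell by 0.53 and 0.26 on the log2 scale (limma adjusted p = 0.0474 and 0.0318). The call of *Fkbp11* was lost without a filter (adjusted p = 0.106). It was also lost without WT replicate 2, WT replicate 3, KO replicate 1 or KO replicate 2 (adjusted p up to 0.148). That of *Xbp1* was lost without any 1 library except WT replicate 3 (adjusted p of 0.07 to 0.131). *Tnfrsf13b*, the receptor TACI, rose from 2.88 ± 0.437 to 11.6 ± 0.975 FPKM (1.85 in log2, limma adjusted p = 8.48e-05).

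**Figure D4:**
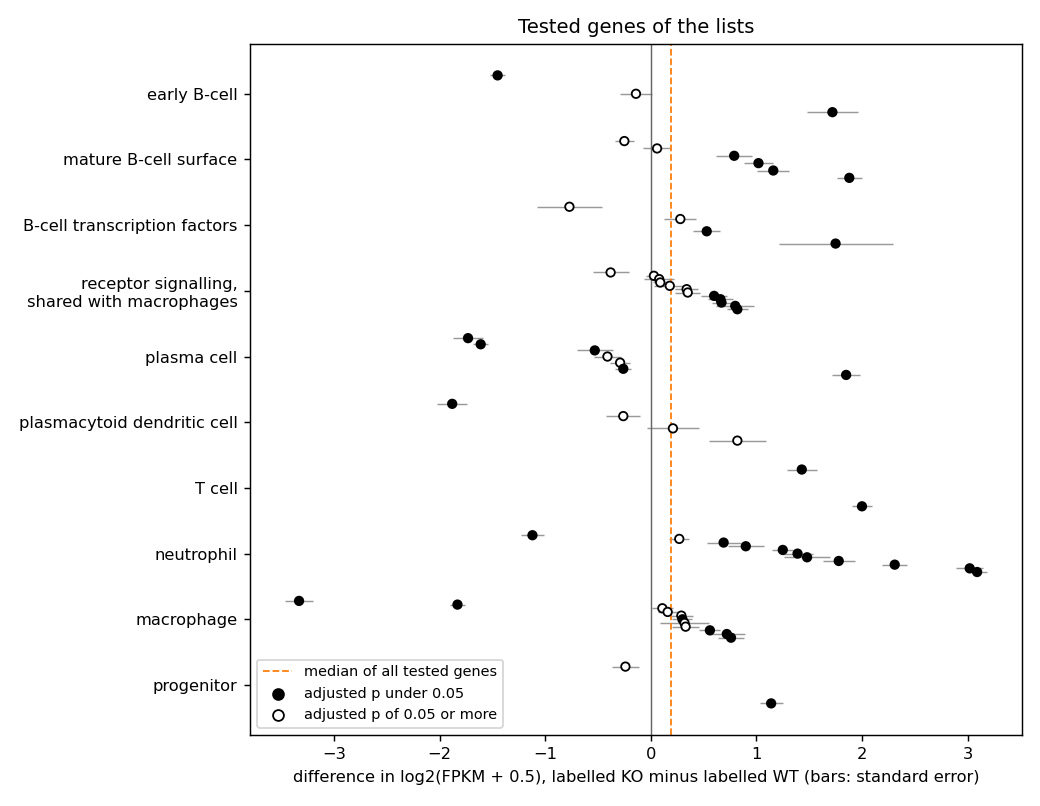
Difference in log2(FPKM + 0.5), labelled KO minus labelled WT, with its standard error (horizontal axis), for every tested gene of the lists, 1 row of points for each list. Filled points passed an adjusted p-value of 0.05 and open points did not; the dashed line is the median of all tested genes at 0.19, and B-cell, neutrophil, plasma cell and macrophage lists hold points on both sides of it.

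Markers of other cells moved with the label as well. Of 14 neutrophil markers, 11 were tested, 9 rose and 1 (*Mmp8*) fell, beside 27.1% and 10.5% of all tested genes. The call of *S100a8* was lost under both other scalings (adjusted p = 0.0805 and 0.0877) and without WT replicate 1, KO replicate 1 or KO replicate 2. The summed level of the 14 was 202 to 261 FPKM in the libraries labelled WT and 555 to 570 FPKM in those labelled KO. *Ngp*, a granule protein of immature neutrophils, rose from 12.9 ± 2.29 to 107 ± 2.8 FPKM (3.02 in log2, limma adjusted p = 1.13e-05). *Ly6g*, the marker of the sort, was listed at 0 in the libraries labelled WT and at 0.66, 0.547 and 0.403 FPKM in KO replicates 1, 2 and 3. The part of neutrophil RNA in the members' values was not tested.

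Of 13 T-cell markers, the 2 tested ones rose, *Cd28* from 1.69 ± 0.0768 to 8.27 ± 0.446 FPKM (2.0 in log2, limma adjusted p = 1.62e-05) and *Cd4* by 1.43 (0.000376), and the list summed to 3.83 to 4.45 FPKM under the WT label and 13.5 to 16.2 FPKM under the KO label. The defining chain *Cd3d* was at 0 throughout, and *Cd3e* and *Cd3g* had means of at most 0.015 FPKM under either label. Of 10 plasmacytoid dendritic cell markers, 4 were tested, none rose in limma (*Tcf4*, with 0.82 in log2, at an unadjusted p = 0.0193 and an adjusted p = 0.0509) and *Bst2* fell (-1.88 in log2, limma adjusted p = 0.000111), with *Siglech*, its defining receptor, at 0 except in KO replicate 2 (0.0291 FPKM). Of 8 haematopoietic progenitor markers, 2 were tested and *Cd48* rose (1.14 in log2, limma adjusted p = 0.000345), while *Flt3* was at 0 throughout. No NK-cell marker of 7 and no erythroid marker of 6 reached the filter. Of 11 macrophage markers, 4 (36.4%) rose and 2 (18.2%) fell, *Cd14* (-3.33 in log2) and *Fcgr1* (-1.83 in log2) (limma adjusted p = 6.82e-06 and 7.16e-06). Beside each count of this paragraph stand the 27.1% of all tested genes that rose and the 10.5% that fell. Of the 4 that rose, *Adgre1*, *Mertk* and *C1qc* lost their call under median-of-ratios scaling (adjusted p = 0.579, 0.0508 and 0.0832).

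The genes most like *Ighm* over the 6 libraries, in log2(FPKM + 0.5), were sought among tested genes. Members and genes with no symbol or a clone name were left out. The 5 most alike were *Ticam2* (Pearson's r = 0.9999), *Daglb* (0.9995), *Mgea5* (0.9993), *Phf19* (0.9993) and *Inpp4b* (0.9992). In all, 346 tested genes had r over 0.99 with *Ighm*, since any gene that separates the labels with little spread within them is alike on 6 libraries. *Cd79b* had r = 0.99 and *Ebf1* r = 0.983 with *Ighm*, and as members they were left out of the ranking.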

How the data were processed

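RNA-seq values of 6 libraries (3 labelled WT, 3 labelled KO) were read from a table in which the authors deposited FPKM for 55335 genes. Per the submitters' processing notes, fastp 0.17.1, HISAT2 2.1.0, DESeq2 1.18.1 and R 3.4.3 were used; the annotation, genome build and FPKM tool are not given in the sources used here. The labels and the methods name different extraction reagents, library kits and sequencers. Identifiers were matched to GENCODE M21 (55154, 99.7%).

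The 13367 genes that averaged 0.5 FPKM or more were tested as log2(FPKM + 0.5), a scale that understates changes of low genes, with limma 3.58.1 in R 4.3.3 (lmFit, eBayes with trend, two-sided, no covariates) and Benjamini-Hochberg adjustment over all of them at 0.05. The fit was also run on simulated data with independent noise and few changed genes. That setting is unlike these data, so the run checks the code only. Fragments were estimated from the step of FPKM times transcript length; 29.9% to 32.7% of low values came within 0.1 of a whole multiple (20% by chance), so whole counts were not recovered and no count test was run. Fragment numbers use the longest transcript and cover counting only.

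The members and lists were chosen with earlier results of these data known, and members got no test. Named were all members, called genes of each list (up to 6 by size), up to 4 more by level, genes at 0 and the 5 nearest to *Ighm*; some list genes are counted but not reported here by name. Alternatives were pseudocounts of 0.1 and 1, no filter or one of 1 FPKM, 2 other scalings, a replicate block and each library left out. Other steps used matplotlib 3.10.9, numpy 2.4.6 and pandas 2.3.3 in Python 3.11.15.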

Additional observations from a re-analysis of the deposited data

How the results depend on the processing

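*Ighm*, *Cd79b* and *Ebf1* were higher in the libraries labelled KO under all 13 alternatives run, by 3.13 to 5, 1.48 to 2.19 and 0.49 to 0.86 in log2; the pseudocount moved *Ighm* and *Cd79b* most. Scaling changed the balance of all genes: the median difference went from 0.19 to -0.01 (median-of-ratios) and to 0 (upper-quartile), and the share of calls that were higher from 72.0% to 47.5% and 49.5%. Under median-of-ratios scaling 2044 genes rose and 2263 fell, and under upper-quartile scaling 2112 rose and 2157 fell; of the wider B-lineage lists 10 rose and 10 fell under the first and 11 rose and 10 fell under the second, against 13 and 5 without scaling. Leaving out 1 library gave 3479 to 5966 called genes (2420 to 4259 higher, 1059 to 1707 lower), and 10 to 13 genes higher and 3 to 8 lower in the wider B-lineage lists. The other cell type lists had 13 to 19 higher and 4 lower. The causes were not tested.

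Deviations of libraries with the same replicate number correlated at 0.12, 0.04 and 0.26, and not every library correlated best with its own number, so the numbers were not taken to pair the samples. With a replicate block, 5934 genes were called and 15 genes of the wider B-lineage lists rose and 9 fell. Depth limits *Cd79a*, *Ms4a1*, *Pax5* and *Jchain*, which rest on at most about 3.71 fragments in any library, and the level of *Ighm* under the WT label.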

Other observations

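Variable segments of the T-cell receptor alpha locus were looked at after their values were seen, beside the immunoglobulin segments. Of 128 *Trav* rows, 3, 2 and 2 were above 0 in WT replicates 1 to 3 and 8, 12 and 8 in KO replicates 1 to 3. Their summed level was 0.546, 0.401 and 0.151 FPKM in WT replicates 1 to 3 against 4.18, 5.06 and 2.65 FPKM in KO replicates 1 to 3, and the labels did not overlap. *Trav13-4-dv7* had the highest single value, 1.73 FPKM in KO replicate 2. The constant gene *Trac* overlapped between the labels, with 0.209, 0.598 and 0.362 FPKM in WT replicates 1 to 3 and 1.08, 0.169 and 0.481 FPKM in KO replicates 1 to 3, and all 35 *Trbv* rows were listed at 0. *Trav* rows are near copies of each other, so fragments may be split among them, and no test was run.

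Of the 50 list genes that lay under the filter, 5 passed without it, all higher in the libraries labelled KO, *Bank1*, *Cox6a2*, *Ly6g* and *Prtn3* among them. In that fit 4505 of all 28101 rows passed, 3180 of them higher under the KO label. *Cox6a2* had 0.0349, 0 and 0 FPKM in WT replicates 1 to 3 and 0.309, 0.808 and 0.764 FPKM in KO replicates 1 to 3 (1.11 in log2). *Prtn3*, a granule protease, differed by 0.77 in log2. *Cox6a2* and *Prtn3* were picked by these values, so no p-value is given for them.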
